A study of Mus musculus with 6 samples.

Results

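The SLAM family is a set of cell surface receptors of lymphocytes and other blood cells, and many of them signal through the small adaptor SAP. The genes described here are the receptors Slamf1, Slamf6, Slamf7, Slamf8, Slamf9, Ly9, Cd84, Cd48 and Cd244a and the adaptor gene Sh2d1a, which encodes SAP. They were found by gene name in a table of RNA levels and are 10 of its 33300 features. RNA was measured in 6 libraries, 3 from SLE1.2.3 mice and 3 from control mice, whose genotype is labelled WT. The name SLE1.2.3 stands for mice prone to lupus through 3 susceptibility intervals, Sle1, Sle2 and Sle3, and the labels do not name the strain of the control mice. Both groups were age-matched females, with no age stated, and each library came from the cells of 1 numbered mouse. Naive CD4 T cells were stimulated for 5 days on plates coated with antibodies to CD3 and CD28 under Th17 conditions. The medium of both groups held antibodies to IL-4 and to IFNγ at 10 µg/mL each, TGFβ1 at 1 ng/mL, IL-6 at 50 ng/mL, and IL-23 and IL-1β at 10 ng/mL each. Th17 cells are the helper T cells defined by their production of interleukin-17.

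Most SLAM receptors bind a copy of themselves on the neighbouring cell, whereas the protein of Cd48 is the ligand of the protein of Cd244a. In the cytoplasmic tails of many members lies a short tyrosine motif, the immunoreceptor tyrosine-based switch motif (ITSM). SAP can bind this motif when its tyrosine is phosphorylated. SAP recruits the kinase FYN, and without SAP the same motifs can recruit inhibitory phosphatases. In mice these signals shape the contact of helper T cells with B cells, the output of IL-4 and the growth of NKT cells. Most of the receptor genes stand side by side on chromosome 1 in the segment called Sle1b, a part of Sle1, where mouse strains carry different SLAM haplotypes.

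The coding stretches of the tyrosine motif are shown for the receptors whose levels the results turn on. The pattern searched was threonine, any residue, tyrosine, 2 of any residue and then valine or isoleucine, read in the longest coding sequence of each gene in GENCODE M21 (GRCm38). The tyrosine codon is in capitals, and each sequence runs 5′ to 3′ on the coding strand.
Slamf7, chr1:171636327-171636344, minus strand: acatttTATtccactgtg
Slamf6, first site, chr1:171939437-171939454, plus strand: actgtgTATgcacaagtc
Slamf6, second site, chr1:171941664-171941681, plus strand: acaattTACtccatagtt
Slamf1, first site, chr1:171792339-171792356, plus strand: actattTATgcccaagta
Slamf1, second site, chr1:171799588-171799605, plus strand: acagttTATgccagtgtg
Cd84, first site, chr1:171884605-171884622, plus strand: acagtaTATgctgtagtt
Cd84, second site, chr1:171885601-171885618, plus strand: accattTATtcctcagtg
Ly9, first site, chr1:171593912-171593929, minus strand: actccaTATgataaagtg
Ly9, second site, chr1:171593438-171593455, minus strand: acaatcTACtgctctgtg
Slamf6, Slamf1, Cd84 and Ly9 each held 2 such stretches and Slamf7 held 1. Cd244a held 4, and Cd48 and Slamf8 held 1 each, at 43.8% and 41.0% of the coding length. The other 13 of the 15 stretches lay between 66.5% and 97.1% of the coding length. The coding sequences of Slamf9 and Sh2d1a held no match. Of 21812 coding genes searched, 7.87% held a match and 0.601% held at least 2. A match is a description of the reference sequence, which may differ from that of the SLE1.2.3 or control mice. Phosphorylation was not measured.

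Levels are in FPKM, fragments per kilobase of the listed gene length and per 1000000 assigned reads. For the members this length was all annotated exonic bases of the gene, 1189 for Cd48 and 10832 for Slamf6. Rankings, sums and shares across genes therefore depend on the annotated length, while the comparison of 1 gene between libraries does not. Depth, recovered from the steps of the values, was between 61.7 and 83.5 (in units of 1000000 assigned reads) in the SLE1.2.3 libraries and between 29.7 and 56.8 in the control libraries. The SLE1.2.3 libraries differed among themselves in their markers of cell type. The 6 pan T cell and CD4 T cell markers summed to 1165, 926 and 739 FPKM in SLE1.2.3 mice 1, 2 and 3, against 1045, 1155 and 1104 FPKM in control mice 1, 2 and 3, and were present in every library. All 6 γδ T cell markers entered the test, whose filter was a mean of 1 FPKM, only through the SLE1.2.3 libraries, where they were high; 5 of them passed as higher, and fitted with no filter only Trdv4 did (limma adjusted p = 0.030). Their summed level was 51.3, 237 and 532 FPKM in SLE1.2.3 mice 1, 2 and 3, against 2.64 to 2.98 FPKM in control mice. The same mice had summed levels of the CD8 genes Cd8a and Cd8b1 of 7.69, 49.9 and 110.2 FPKM, against 4.65 to 5.6 FPKM in control mice, and neither gene passed. Cd4 itself had 257, 144 and 71.6 FPKM in SLE1.2.3 mice 1, 2 and 3, against 246 to 264 FPKM in control mice (limma adjusted p = 0.20). Libraries 2 and 3 of the SLE1.2.3 group thus stood apart from library 1 and from all controls. Summed NK cell markers were at 23.6 to 45.1 FPKM in SLE1.2.3 and 6.54 to 7.64 FPKM in control libraries. Of these 6 genes Klrd1 and Klrk1 were tested and passed as higher, and Klrk1 passed the filter solely through its level in SLE1.2.3. Fitted with no filter, Klrd1 passed (limma adjusted p = 0.021) and Klrk1 did not (limma adjusted p = 0.056). The NK receptor gene Ncr1 averaged 0.0190 FPKM in SLE1.2.3 and 0.00433 FPKM in control libraries. The B cell marker Cd79b was tested and passed as higher, at a mean of 2.17 FPKM in SLE1.2.3 and 0.942 FPKM in control libraries. The 3 plasma cell markers summed to 2.50 to 5.62 FPKM in SLE1.2.3 and 0.50 to 0.582 FPKM in control libraries. Jchain carried this difference, at a mean of 3.44 FPKM in SLE1.2.3 and 0.0553 FPKM in control libraries, while Sdc1 overlapped and Tnfrsf17 averaged 0.00967 FPKM in SLE1.2.3 and 0.0137 FPKM in control libraries. The 4 dendritic cell markers summed to 1.49 to 5.59 FPKM in SLE1.2.3 and 0.395 to 0.527 FPKM in control libraries. Xcr1 carried this difference, at a mean of 3.35 FPKM in SLE1.2.3 and 0.0523 FPKM in control libraries, while Itgax averaged 0.232 FPKM in SLE1.2.3 and 0.308 FPKM in control libraries and Flt3 overlapped. Cd79b, Jchain and Xcr1 also entered the test only through the SLE1.2.3 libraries. Fitted with no filter, Jchain passed (limma adjusted p = 0.033), while Cd79b (limma adjusted p = 0.10) and Xcr1 (limma adjusted p = 0.094) did not. Monocyte and macrophage markers summed to 3.11 to 12.1 FPKM in SLE1.2.3 and 8.29 to 9.65 FPKM in control libraries, with Cd68 lower among the 3 tested. None of these markers was at 0 in all 6 libraries.

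The question put to the SLAM genes was how their RNA levels in SLE1.2.3 cells differed from those in control cells after the same Th17 culture. Slamf7, Slamf6 and Slamf1 fell and Cd84 rose in SLE1.2.3 cells. The build named for the levels was mm10, and whether differences of the mice from its sequence shifted the levels was not tested. Ly9, Sh2d1a and Cd48 did not pass the test, and Cd244a, Slamf8 and Slamf9 lay under the filter on low values, a mean of 1 FPKM over the 6 libraries. The test was limma on log2(FPKM + 1) across all 11378 genes over that filter, with Benjamini-Hochberg adjustment and a threshold of 0.05. Of the 7 members tested, 4 passed, which is 57.1%, against 15.2% of all tested genes. Lower calls made up 3 of the 7, against a background of 5.58%, and higher calls 1 of the 7, against 9.65%. In 5 of the 7, which is 71.4%, the groups did not overlap, against 41.5% of all tested genes. The median log2 difference was -0.76 over the 7 members and 0.013 over all tested genes, and 6 of the 7 were lower by sign. The other 3 are described by their reads.

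The number of calls depended on single libraries. Without SLE1.2.3 mouse 1, 6 members passed, without SLE1.2.3 mouse 3, 3 passed, and without SLE1.2.3 mouse 2 or without any 1 of the control mice only Slamf7 passed. The calls over all 11378 genes moved as well, to 3701, 240 and 1290 when mouse 1, 2 or 3 of the SLE1.2.3 group was left out and to 261 to 327 when a control mouse was, against 1733 with all libraries. Rescaling the libraries to a common FPKM sum moved the median of all genes to 0.112 on the log2 scale. It gave 990 higher and 351 lower genes, and quantile normalization gave 921 higher and 881 lower, where the deposited scale gave 1098 higher and 635 lower.

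**Figure D1:**
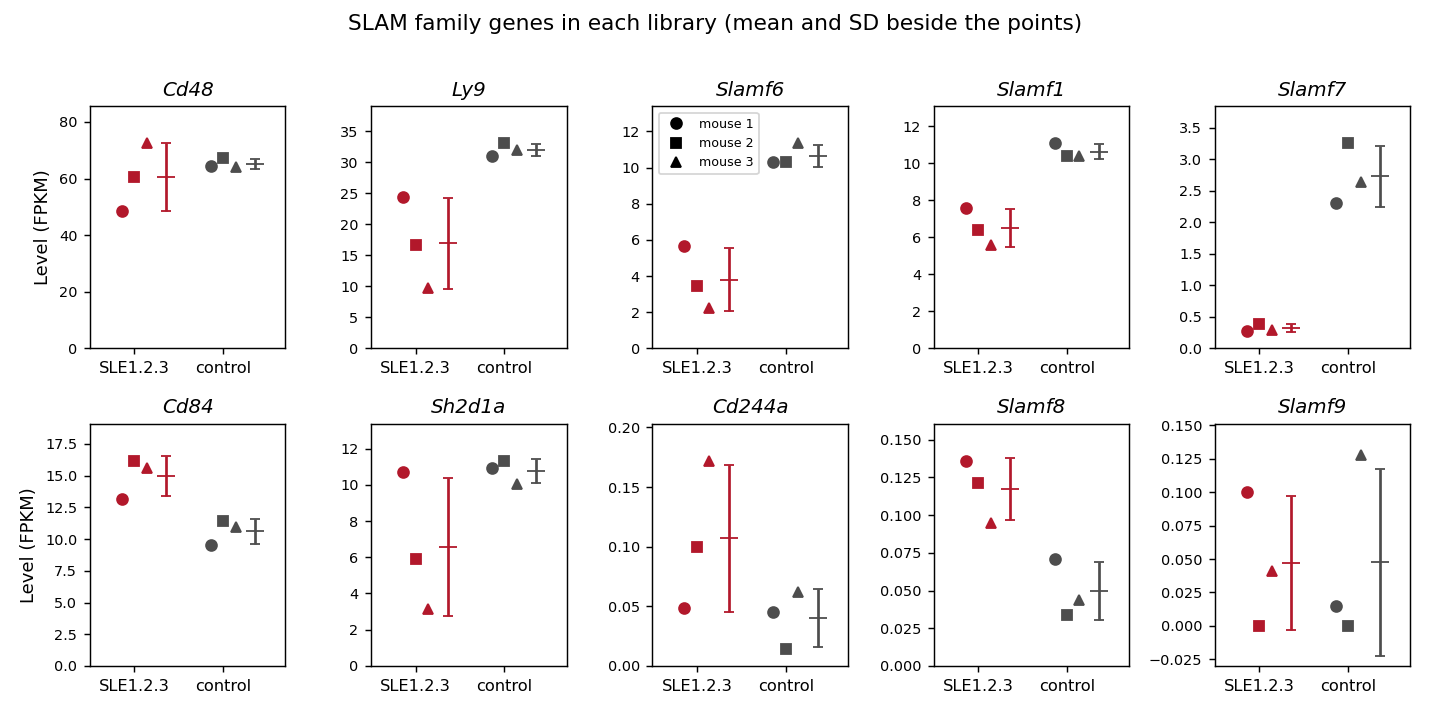
Level in FPKM (vertical axis, linear, its own range for each gene) of the 10 SLAM family genes in each SLE1.2.3 library (left, red) and control library (right, grey); the symbol gives the mouse number, and the bar beside the points is the mean with its SD (n = 3 each). Slamf7 is below 0.4 FPKM in every SLE1.2.3 library and above 2.3 FPKM in every control library, and the SLE1.2.3 libraries of Ly9, Slamf6 and Sh2d1a are spread more widely than the controls.

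The order of the receptors by level differed in part between the groups. In SLE1.2.3 cells Cd48 was highest (48.5 to 72.5 FPKM), then Ly9 (9.70 to 24.4 FPKM) and Cd84 (13.2 to 16.2 FPKM), whose ranges overlapped. Sh2d1a (3.14 to 10.7 FPKM), Slamf1 (5.57 to 7.60 FPKM) and Slamf6 (2.26 to 5.67 FPKM) overlapped as neighbours, and Slamf7 was lowest of those tested. In control cells Cd48 (64.1 to 67.3 FPKM) was followed by Ly9 (31.0 to 33.0 FPKM), and these ranges did not overlap. Sh2d1a, Slamf6, Slamf1 and Cd84 followed, all between 9.52 and 11.4 FPKM in control cells and overlapping each other, and Slamf7 (2.31 to 3.25 FPKM) was again lowest of those tested.

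Slamf7 encodes a receptor also called CRACC, known from NK cells, activated lymphocytes and plasma cells, which in mice signals through the SAP-related adaptor EAT-2. It lies on the minus strand at chr1:171632403-171653035, and all gene coordinates given here are those of mm10. Its level was 0.27, 0.393 and 0.30 FPKM in SLE1.2.3 mice 1, 2 and 3, against 2.31, 3.25 and 2.64 FPKM in control mice 1, 2 and 3. All 3 SLE1.2.3 libraries were low and close to each other, and the groups were far apart. The SLE1.2.3 mean was 0.321 ± 0.0641 FPKM and the control mean 2.73 ± 0.481 FPKM (SD, n = 3 each), so the SLE1.2.3 level was 11.7% of the control level. These levels rest on 103, 111 and 103 reads in SLE1.2.3 libraries and 531, 846 and 359 reads in the shallower control libraries. The log2 difference was -1.49 (SE 0.12, 95% interval -1.78 to -1.20, limma adjusted p = 0.0027) on the log2(FPKM + 1) scale, which understates the change of a gene at this level. Slamf7 passed the filter on low values only through the control libraries, where it was high; fitted with no filter it passed as well (limma adjusted p = 0.015). On the recovered reads, where no pseudocount of 1 FPKM enters, limma voom gave -3.12.

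The low level of Slamf7 was as marked in SLE1.2.3 mouse 1 as in mice 2 and 3. Slamf7 stood at 9.88%, 14.4% and 11% of the control mean in SLE1.2.3 mice 1, 2 and 3. In mouse 1 Cd4 was at 101% of the control mean, and γδ markers were lowest of the group. They still summed to 51.3 FPKM there, against 2.64 to 2.98 FPKM in control mice, and NK cell markers to 23.6 FPKM, against 6.54 to 7.64 FPKM. The part of cell type in the level of Slamf7 was not tested. With mice 2 and 3 left out together, the log2 difference was -1.55, given as a size only, since the lone library shows no spread of its group. In the annotation a short antisense gene, Gm37787, shares 423 exonic bases with Slamf7. It was at 0 in all 3 SLE1.2.3 libraries and at 0.136, 0.211 and 0.172 FPKM in control mice 1, 2 and 3. The strand setting of the counting is not given in the sources used here, so reads of both genes in the shared bases cannot be told apart.

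Slamf6 encodes Ly108, a receptor that binds itself and signals through SAP, and one of the genes whose isoforms have been studied as candidates in Sle1b. It lies on the plus strand at chr1:171917515-171953170. Its level was 5.67, 3.47 and 2.26 FPKM in SLE1.2.3 mice 1, 2 and 3, against 10.3, 10.3 and 11.3 FPKM in control mice 1, 2 and 3. Every SLE1.2.3 library was below every control, with mouse 3 lowest and mouse 1 nearest to the controls. The means were 3.80 ± 1.73 FPKM in SLE1.2.3 cells and 10.7 ± 0.60 FPKM in control cells (SD, n = 3 each), and the log2 difference was -1.34 (SE 0.25, 95% interval -1.93 to -0.75, limma adjusted p = 0.022). Without the filter on low values its adjusted p was 0.062, while 798 of 30034 genes passed, a background of 2.66%. In SLE1.2.3 mouse 1 alone against the controls the difference was -0.80, given as a size only, since 1 library shows no spread of its group. The table gives 1 level per gene, so its isoforms were not analysed here.

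Slamf1 encodes the founding receptor SLAM, CD150, which binds itself and recruits SAP. It lies on the plus strand at chr1:171767127-171801184. Its level was 7.60, 6.39 and 5.57 FPKM in SLE1.2.3 mice 1, 2 and 3, against 11.1, 10.4 and 10.4 FPKM in control mice 1, 2 and 3. The SLE1.2.3 libraries were all lower, and the groups did not overlap. The SLE1.2.3 mean of 6.52 ± 1.02 FPKM was 61.4% of the control mean of 10.6 ± 0.397 FPKM (SD, n = 3 each), with a log2 difference of -0.64 (SE 0.11, 95% interval -0.89 to -0.38, limma adjusted p = 0.018). Scaled to a common FPKM sum, the difference was -0.53 and no longer passed (limma adjusted p = 0.053). In SLE1.2.3 mouse 1 alone against the controls it was -0.43, given as a size only.

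Cd84 encodes a receptor that binds itself and, with SAP, holds helper T cells and B cells together in germinal centres. It lies on the plus strand at chr1:171839697-171890718, between Slamf1 and Slamf6. Its level was 13.2, 16.2 and 15.6 FPKM in SLE1.2.3 mice 1, 2 and 3, against 9.52, 11.4 and 10.9 FPKM in control mice 1, 2 and 3. Here the SLE1.2.3 libraries were the higher ones, and the groups did not overlap. The SLE1.2.3 mean of 15.0 ± 1.59 FPKM was 141% of the control mean of 10.6 ± 0.985 FPKM (SD, n = 3 each), with a log2 difference of 0.46 (SE 0.10, 95% interval 0.21 to 0.71, limma adjusted p = 0.035). Fitted on SLE1.2.3 mouse 1 alone against the controls, it was 0.29, given as a size only. Without the filter on low values it was 0.46 and did not pass (limma adjusted p = 0.080).

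Ly9, or CD229, is a self-binding receptor with inhibitory roles in innate-like T cells of mice. It lies on the minus strand at chr1:171588624-171607410, inside the span of Cd244a on the other strand, with which it shares no exonic base. Its level was 24.4, 16.7 and 9.70 FPKM in SLE1.2.3 mice 1, 2 and 3, against 31.0, 33.0 and 31.9 FPKM in control mice 1, 2 and 3. The groups did not overlap, while the SLE1.2.3 libraries were unlike each other. The log2 difference of -0.97 did not pass (SE 0.29, 95% interval -1.67 to -0.26, limma adjusted p = 0.071). The means were 16.9 ± 7.35 FPKM in SLE1.2.3 cells and 32.0 ± 1.02 FPKM in control cells (SD, n = 3 each). Scaled to a common FPKM sum, Ly9 passed at a difference of -0.85 (limma adjusted p = 0.045), and without SLE1.2.3 mouse 1 it passed as well at -1.26. In SLE1.2.3 mouse 1 alone against the controls it was -0.38, given as a size only.

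Cd48 encodes a receptor with no cytoplasmic tail that is held in the membrane by a lipid anchor and also binds CD2 in mice. It lies on the plus strand at chr1:171682009-171705258. Its level was 48.5, 60.6 and 72.5 FPKM in SLE1.2.3 mice 1, 2 and 3, against 64.3, 67.3 and 64.1 FPKM in control mice 1, 2 and 3. The SLE1.2.3 libraries lay on both sides of the controls. The means were 60.5 ± 12 FPKM in SLE1.2.3 cells and 65.2 ± 1.76 FPKM in control cells (SD, n = 3 each), which is a log2 difference of -0.13 (SE 0.14, 95% interval -0.47 to 0.22, limma adjusted p = 0.56). Its sign turned to 0.02 without SLE1.2.3 mouse 1.

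Sh2d1a, the gene of the adaptor SAP, lies on the plus strand at chrX:42502453-42529330, outside the cluster. Its level was 10.7, 5.91 and 3.14 FPKM in SLE1.2.3 mice 1, 2 and 3, against 10.9, 11.3 and 10.0 FPKM in control mice 1, 2 and 3. SLE1.2.3 mouse 1 lay among the controls and mice 2 and 3 below them, so the groups overlapped. The means were 6.58 ± 3.82 FPKM in SLE1.2.3 cells and 10.8 ± 0.663 FPKM in control cells (SD, n = 3 each), and the log2 difference of -0.76 did not pass (SE 0.35, 95% interval -1.60 to 0.08, limma adjusted p = 0.18). Fitted on SLE1.2.3 mouse 1 alone against the controls, it was -0.01, given as a size only. Without SLE1.2.3 mouse 1 it was -1.14 and passed. The gene Tenm1 on the other strand shares 1465 exonic bases with Sh2d1a and was at most 0.002 FPKM in SLE1.2.3 and 0.006 FPKM in control libraries.

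Sh2d1a moved with Cd4 from library to library. Per 100 FPKM of Cd4 in the same library, Sh2d1a stood at 4.15, 4.10 and 4.38 FPKM in SLE1.2.3 mice 1, 2 and 3, against 4.44, 4.28 and 3.96 FPKM in control mice 1, 2 and 3. On this scale, chosen after seeing the data and used with no test, SLE1.2.3 and control libraries overlapped. Ly9 stood at 9.48, 11.6 and 13.5 FPKM per 100 FPKM of Cd4 in SLE1.2.3 mice 1, 2 and 3, and between 12.5 and 12.6 in control mice, so its order among the SLE1.2.3 libraries was turned round. Slamf7 (0.105 to 0.419 in SLE1.2.3 cells, 0.937 to 1.23 in control cells) and Slamf6 (2.21 to 3.16 in SLE1.2.3 cells, 3.90 to 4.48 in control cells) were still lower in every SLE1.2.3 library. Slamf1 overlapped on this scale, at 2.95, 4.44 and 7.78 in SLE1.2.3 mice 1, 2 and 3 and 3.93 to 4.50 in control mice. Cd84 was above the controls in every SLE1.2.3 library, at 5.12, 11.2 and 21.8 in SLE1.2.3 mice 1, 2 and 3 and 3.87 to 4.32 in control mice. Cd48 overlapped, at 18.8, 42.1 and 101 in SLE1.2.3 mice 1, 2 and 3 and 25.3 to 26.1 in control mice. Since Cd4 was low in SLE1.2.3 mice 2 and 3, a gene that did not fall with it is raised there on this scale. In these bulk libraries fewer CD4 T cells and less RNA of a gene per cell cannot be told apart, and the part of other cell types in the member differences was not tested.

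**Figure D2:**
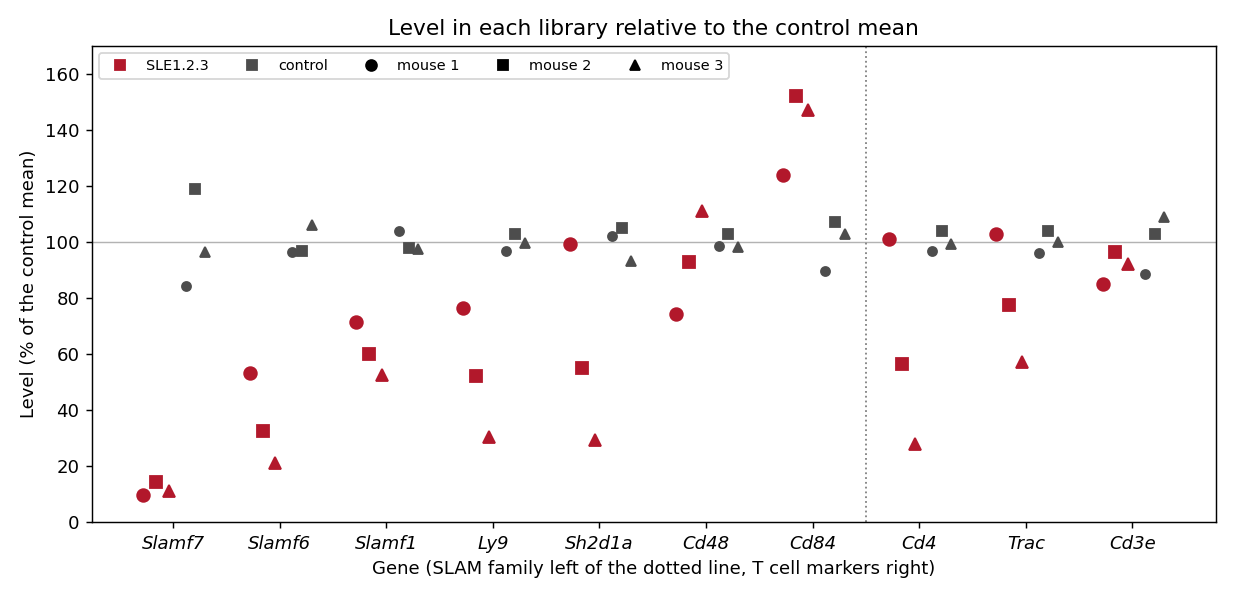
Level in each library as a percentage of the control mean (vertical axis, linear) for the 7 tested SLAM genes and, right of the dotted line, the T cell markers Cd4, Trac and Cd3e; SLE1.2.3 libraries are red and left of the grey control libraries of each gene, and the symbol gives the mouse number. In SLE1.2.3 mice 1, 2 and 3 Cd4 was at 101%, 56.6% and 28.1% and Sh2d1a at 99.3%, 54.9% and 29.2%, while Slamf7 was between 9.88% and 14.4%.

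Genes of the T cell receptor complex were set beside these shares, and Cd3e, Cd3d and Cd3g were steadier than Cd4. Cd3g was at 113%, 112% and 119.6% of the control mean in SLE1.2.3 mice 1, 2 and 3, and Cd3d at 111%, 102% and 90.0%. Cd247, another gene of the complex, was at 149%, 145% and 115%. The groups did not overlap for Cd3g or Cd247, and neither passed (limma adjusted p = 0.11 and 0.052). Cd3e was at 84.9%, 96.4% and 92.2% of the control mean in SLE1.2.3 mice 1, 2 and 3, and Trac, the constant segment of the α chain, at 103%, 77.4% and 57.3%. Centred on the CD3 chain genes Cd3e, Cd3d and Cd3g, the same 4 members were called. The library factors of this scaling lay between 0.913 and 1.05, so it changed the values little. These genes are pan T cell markers, and the scaling cannot address the fall of Cd4.

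The summed level of the 9 receptors was 99.9, 104 and 106 FPKM in SLE1.2.3 mice 1, 2 and 3, against 129, 136 and 132 FPKM in control mice 1, 2 and 3. The sums were alike within each group, while their composition varied among the SLE1.2.3 libraries and was alike among the control libraries. Cd48 made up 48.5%, 58.3% and 68.2% of the sum in SLE1.2.3 mice 1, 2 and 3, and between 48.8% and 50.0% in control mice. Ly9 made up 24.4%, 16.1% and 9.13% in SLE1.2.3 mice 1, 2 and 3, and between 24.1% and 24.3% in control mice. Cd84 held 13.2% to 15.6% of the sum in SLE1.2.3 and 7.40% to 8.41% in control libraries. Without Cd48 the sum was 51.4, 43.3 and 33.7 FPKM in SLE1.2.3 mice 1, 2 and 3, against 64.3, 68.5 and 67.4 FPKM in control mice 1, 2 and 3.

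The 3 receptors under the filter on low values rest on few reads. Cd244a, the receptor of CD48 known from NK and cytotoxic T cells, is at chr1:171559193-171609746 on the plus strand. It had 20, 30 and 63 reads in SLE1.2.3 mice 1, 2 and 3, against 11, 4 and 9 reads in control mice 1, 2 and 3. These correspond to 0.049, 0.10 and 0.172 FPKM in SLE1.2.3 cells and 0.045, 0.014 and 0.062 FPKM in control cells, ranges that overlapped. Fitted with no filter, it did not pass (limma adjusted p = 0.33).

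Slamf8, a receptor of macrophages, is at chr1:172581758-172590568 on the minus strand. It had 35, 23 and 22 reads in SLE1.2.3 mice 1, 2 and 3, against 11, 6 and 4 reads in control mice 1, 2 and 3. In FPKM it was at 0.136, 0.121 and 0.095 in SLE1.2.3 cells and 0.071, 0.034 and 0.044 in control cells, so the groups did not overlap, and it did not pass the fit with no filter (limma adjusted p = 0.092). Slamf9, known from myeloid and dendritic cells, is at chr1:172475358-172478575 on the plus strand and had 11, 0 and 4 reads in SLE1.2.3 mice 1, 2 and 3, against 1, 0 and 5 reads in control mice 1, 2 and 3. The 0 counts, in mouse 2 of each group, allow a level of up to 0.0370 FPKM in SLE1.2.3 mouse 2 and 0.0402 FPKM in control mouse 2, taken as 3 reads and covering counting error only. No difference in Slamf9 was detectable at this depth.

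The cluster was set beside the genes around it. Within 500 kb of a chromosome 1 member lay 77 other features, of which 24 were tested. Of these, 4 were higher, 2 were lower and 18 did not pass, beside 9.65% higher and 5.58% lower among all tested genes, and their median log2 difference was 0.02, against 0.013 over all tested genes. Usf1, which encodes a transcription factor of the helix-loop-helix class, had 28.8, 30.2 and 29.8 FPKM in SLE1.2.3 mice 1, 2 and 3, against 18.5, 21.1 and 18.6 FPKM in control mice 1, 2 and 3 (log2 difference 0.59, SE 0.07, limma adjusted p = 0.0082). Ppox, a gene of haem synthesis, had 8.02, 6.32 and 5.64 FPKM in SLE1.2.3 mice 1, 2 and 3, against 10.4, 11.3 and 9.83 FPKM in control mice 1, 2 and 3 (log2 difference -0.60, SE 0.12, limma adjusted p = 0.029). In both genes the groups did not overlap. Pea15a (0.48, limma adjusted p = 0.025), Arhgap30 (0.42, limma adjusted p = 0.015) and Ufc1 (0.31, limma adjusted p = 0.020) were the other higher genes on the log2 difference scale, and Ncstn, a subunit of γ-secretase, was the other lower one (-0.23, limma adjusted p = 0.041). Of the 77 features, 8 were at 0 in all libraries and were left out of the fit with no filter, in which 798 of 30034 genes passed, or 2.66%. In that fit Usf1 (limma adjusted p = 0.022), Ufc1 (limma adjusted p = 0.030) and Arhgap30 (limma adjusted p = 0.030), all over the filter, passed as higher. Among the neighbours under the filter, 4 passed that fit. All 4 fell: Apoa2 (limma adjusted p = 0.0056) and the predicted genes Gm37787 (limma adjusted p = 0.022), Gm37065 (limma adjusted p = 0.023) and Gm37145 (limma adjusted p = 0.029). Gm37787 rests on 4, 7 and 3 reads in control mice 1, 2 and 3. It shares 423 exonic bases with Slamf7, where reads of both genes cannot be told apart. These 4 were singled out after their values were seen. Among all tested genes, 60 called genes, Slamf7 counted, fell by as much as Slamf7 or more on the log2(FPKM + 1) scale. That scale understates the change of genes at low levels such as Slamf7.

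**Figure D3:**
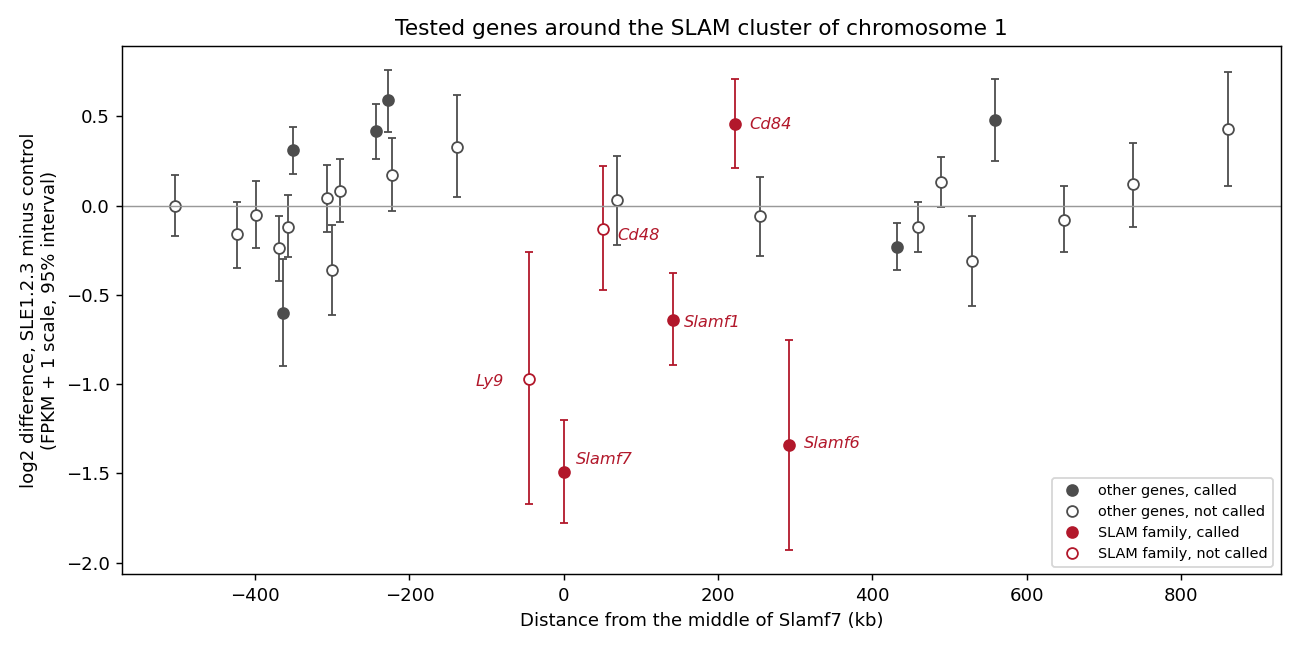
log2 difference (SLE1.2.3 minus control, FPKM + 1 scale, vertical axis) with its 95% interval for the tested genes around the SLAM cluster, against the distance of each gene from the middle of Slamf7 in kb; SLAM genes are red, other genes grey, and filled points passed an adjusted p of 0.05. Slamf7, Slamf6, Slamf1 and Ly9 lie lower than the other genes shown, all of them over the filter on low values, and Cd84, between Slamf1 and Slamf6, lies above 0.

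The bases before the annotated start are shown for Slamf7 and Cd84, the members with the largest fall and the only rise. RefSeq (GRCm38.p6) gave a window of 250 bases before to 50 after the start for 8 members, and only the 250 bases before it are printed. The RefSeq start of Slamf7 lies inside the gene span given above.
Slamf7, chr1:171649000-171649249, minus strand: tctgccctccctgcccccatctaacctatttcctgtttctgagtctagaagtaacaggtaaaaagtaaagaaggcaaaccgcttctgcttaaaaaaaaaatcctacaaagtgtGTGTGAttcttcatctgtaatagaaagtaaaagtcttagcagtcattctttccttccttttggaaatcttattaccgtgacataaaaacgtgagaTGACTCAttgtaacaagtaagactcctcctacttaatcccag
Cd84, chr1:171839447-171839696, plus strand: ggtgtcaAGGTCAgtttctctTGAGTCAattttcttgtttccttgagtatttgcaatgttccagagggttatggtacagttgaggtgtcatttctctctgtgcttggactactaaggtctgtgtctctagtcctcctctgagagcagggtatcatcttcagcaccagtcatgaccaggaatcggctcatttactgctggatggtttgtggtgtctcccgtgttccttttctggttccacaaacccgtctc
Capitals mark matches to 4 sets of letters, searched on both strands in the windows and chosen with the levels known. These were the AP-1 letters TGACTCA, the nuclear receptor half-site AGGTCA, the STAT letters TTCNNNGAA and the T-box half-site TCACAC. Slamf7 held TGACTCA from -42 to -36 and TCACAC on the reverse strand from -137 to -132, counted from the start. Cd84 held AGGTCA from -243 to -238 and TGACTCA on the reverse strand from -229 to -223, and no 2 of these matches overlapped. TGACTCA was found in 5.20% of 32851 windows of this length, AGGTCA in 16.3%, TCACAC in 14.5% and TTCNNNGAA in 8.30%. These are letters in a window of the reference genome, which may differ from the bases of the SLE1.2.3 or control mice. Binding was not measured.

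Of the signalling genes downstream of the receptors, 17 of 19 listed genes were tested, and 1 rose, 0 fell and 16 did not pass, where 15.2% of all tested genes were called. Their median log2 difference was 0.00, against 0.013 over all tested genes. Dok1, an adaptor that dampens tyrosine kinase signals, was the one that rose, at 28.5 ± 1.86 FPKM in SLE1.2.3 cells and 21.3 ± 1.38 FPKM in control cells (SD, n = 3 each; log2 difference 0.40, SE 0.08, limma adjusted p = 0.024). The kinase Lck was at 195 ± 22.1 FPKM in SLE1.2.3 cells and 183 ± 3.22 FPKM in control cells (limma adjusted p = 0.58), and Csk, which restrains it, at 76.7 ± 1.26 FPKM in SLE1.2.3 cells and 78.7 ± 3.07 FPKM in control cells (limma adjusted p = 0.69). Fyn, the kinase that SAP brings to the receptors, was at 35.2 ± 1.31 FPKM in SLE1.2.3 cells and 36.2 ± 1.35 FPKM in control cells, with a 95% interval of the log2 difference from -0.19 to 0.11. The EAT-2 genes Sh2d1b1 and Sh2d1b2 lay under the filter, at means of 0.026 and 0.00167 FPKM in SLE1.2.3 cells and 0.005 and 0.00233 FPKM in control cells.

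Other receptors by which T cells touch or costimulate each other were listed beside the SLAM receptors, and values with ± are means with the SD of 3 libraries here and for the lists that follow. Of 13 listed genes 12 were tested, of which 4 rose, 0 fell and 8 did not pass, beside 9.65% higher and 5.58% lower among all tested genes, with a median log2 difference of 0.39. Alcam, the ligand of CD6, rose to 13.4 ± 0.746 FPKM in SLE1.2.3 libraries, against 8.17 ± 0.193 FPKM in control libraries (log2 difference 0.65, limma adjusted p = 0.0053). Icam1 rose to 28.8 ± 7.99 FPKM in SLE1.2.3 libraries, against 12.4 ± 1.69 FPKM in control libraries (1.12, limma adjusted p = 0.024), and Itgal, a chain of its integrin receptor LFA-1, to 153 ± 30.3 FPKM in SLE1.2.3 libraries, against 94.0 ± 10.5 FPKM in control libraries (0.68, limma adjusted p = 0.039). Cd96 rose to 26.4 ± 15.3 FPKM in SLE1.2.3 libraries, against 5.38 ± 1.30 FPKM in control libraries (1.94, limma adjusted p = 0.042). Cd2, whose protein binds CD48, had 248, 142 and 88.9 FPKM in SLE1.2.3 mice 1, 2 and 3, against 386, 334 and 291 FPKM in control mice 1, 2 and 3. Its groups did not overlap, and its log2 difference of -1.19 did not pass (limma adjusted p = 0.069). The LFA-1 chain Itgb2 was at 165 ± 39.1 FPKM in SLE1.2.3 cells and 119.8 ± 4.67 FPKM in control cells (limma adjusted p = 0.13).

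Of 9 genes whose induction is linked to SLAM and SAP signals in mice, 8 were tested, of which 3 rose, 0 fell and 5 did not pass, beside the same 9.65% higher and 5.58% lower among all tested genes, with a median log2 difference of 0.50. Il13, a type 2 cytokine gene, rose to 18.3 ± 6.88 FPKM in SLE1.2.3 libraries, against 0.942 ± 0.174 FPKM in control libraries (log2 difference 3.25, limma adjusted p = 0.0027). Zbtb16, which encodes PLZF, the factor of NKT and other innate-like T cells, rose to 4.51 ± 1.97 FPKM in SLE1.2.3 libraries, against 0.0647 ± 0.0180 FPKM in control libraries (2.30, limma adjusted p = 0.0078), and both Il13 and Zbtb16 passed the filter only through the SLE1.2.3 libraries. With no filter both passed as well (limma adjusted p = 0.015 for Il13 and 0.029 for Zbtb16). Bcl6, the factor of follicular helper T cells, rose to 7.58 ± 1.01 FPKM in SLE1.2.3 libraries, against 3.85 ± 0.476 FPKM in control libraries (0.82, limma adjusted p = 0.012). The cytokine gene Il21 had 80.6, 32.7 and 17.7 FPKM in SLE1.2.3 mice 1, 2 and 3, against 122, 127 and 99.4 FPKM in control mice 1, 2 and 3, and did not pass (limma adjusted p = 0.071). Icos was at 114 ± 6.82 FPKM in SLE1.2.3 cells and 114 ± 13.3 FPKM in control cells (limma adjusted p = 0.98).

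Defining Th17 genes were set beside the SLAM genes as well. Il23r, the IL-23 receptor, rose to 38.4 ± 3.83 FPKM in SLE1.2.3 libraries, against 17.4 ± 0.636 FPKM in control libraries (log2 difference 1.09, limma adjusted p = 0.0026). Rora, a nuclear receptor gene, rose as well (1.23, limma adjusted p = 0.0036), as did Il17a (1.79, limma adjusted p = 0.014) and the receptor gene Ccr6 (0.96, limma adjusted p = 0.027). Il17f was at 654 ± 108 FPKM in SLE1.2.3 cells and 550.0 ± 153 FPKM in control cells (limma adjusted p = 0.43). Summed γδ markers, at 51.3 to 532 FPKM in SLE1.2.3 and 2.64 to 2.98 FPKM in control libraries, differed between the same groups, and their part in the differences of these gene lists was not tested.

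The protein-coding genes most like each member were found by Pearson correlation of log2(FPKM + 1) over the 6 libraries, 2 for each tested member. These libraries share their genotype split and their marker gradient, and the values are a description. Sh2d1a was most like Rec8 and Ccr7 (r = 0.998 for both). Ccr7, the lymph node homing receptor of naive T cells, had 181, 82.6 and 38.0 FPKM in SLE1.2.3 mice 1, 2 and 3, against 171, 183 and 173 FPKM in control mice 1, 2 and 3, with SLE1.2.3 mouse 1 among the controls and mice 2 and 3 below them. Slamf7 was most like AI987944 (r = 0.995) and Hspb6 (r = 0.993), both on chromosome 7. Hspb6, a small heat shock protein gene, had 1.42, 1.41 and 1.42 FPKM in SLE1.2.3 mice 1, 2 and 3, against 3.75, 5.71 and 4.23 FPKM in control mice 1, 2 and 3, so it too was even in SLE1.2.3 libraries and highest in control mouse 2. Cd84 was most like Stk17b, on chromosome 1, and Zbtb14 (r = 0.999 for both). Slamf1 was most like Map3k20 and Cand2 (r = 0.999 for both), Slamf6 most like Galnt10 and Qser1 (r = 0.998 for both), Ly9 most like Lpin1 and Il1rl2 (r = 0.999 for both), and Cd48 most like Azin1 (r = 0.990) and Fam98b (r = 0.989).

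**Figure D4:**
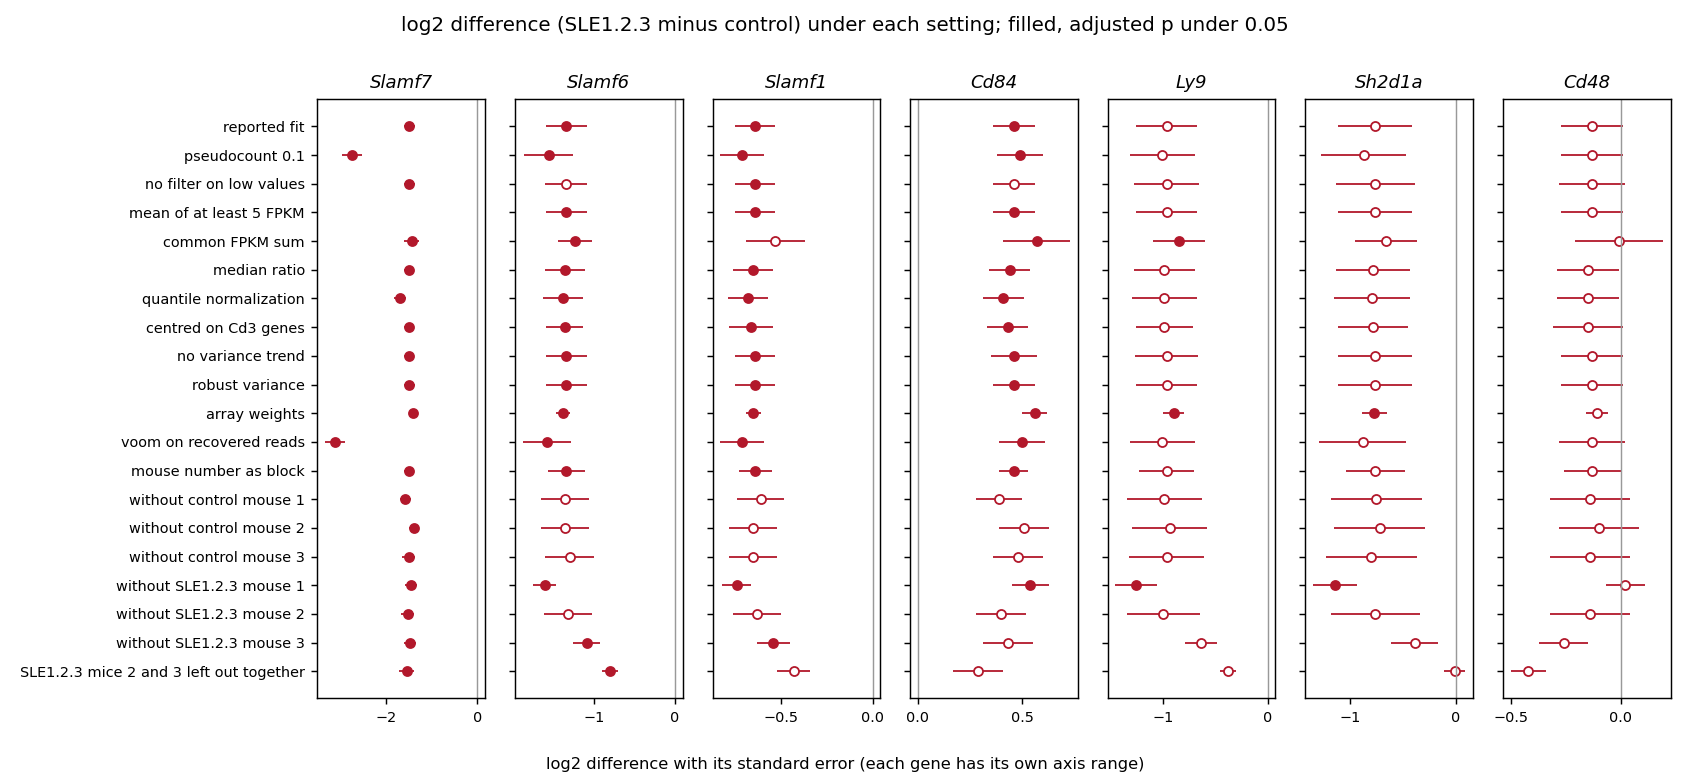
log2 difference (SLE1.2.3 minus control, horizontal axis, its own range for each gene) with its standard error for the 7 tested SLAM genes under the reported fit and each alternative setting, 1 per line; filled points had an adjusted p under 0.05. Slamf7 is filled in every setting in which it was tested, and Sh2d1a reaches -0.01 where SLE1.2.3 mice 2 and 3 are left out together.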

How the data were processed

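Libraries of polyadenylated RNA were made with a SMARTER kit, per the labels. Named in the submitters' processing notes, without role or order, are STAR 2.7.3a and featureCounts 2.0.0, then also DESeq2 1.24.0, FastQC 0.11.9 and cutadapt 2.10, and as build mm10. The authors deposited FPKM values for 33300 features with coordinates and feature lengths, and 33204 feature IDs matched GENCODE M21 without their version. 24 symbols that a spreadsheet had turned into dates were restored from the ID. The low FPKM values were whole multiples of 1 read (100.0% of values under 30 reads, within 0.15 of a read), which gave the assigned reads per library. A listed 0 allows up to 3 reads, 0.0359 to 0.101 per 1000000 reads; this limit is for counting error alone.

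The test took genes whose mean over the 6 libraries reached 1 FPKM. It was run on log2(FPKM + 1) with limma 3.58.1 in R 4.3.3, with an empirical Bayes variance trend, genotype as the only term and Benjamini-Hochberg adjustment over 11378 genes. A p-value here weighs a difference against the spread of 3 mice per group. Where SLE1.2.3 mice 2 and 3 were left out together, the spread came from the control mice alone. The counts of alternatives passed include that setting. The script was tested on simulated data. Genes named besides the members were, per list, up to 4 past the threshold by adjusted p and up to 2 others by level, up to 6 called neighbours by size, and 2 genes per member by correlation. Fyn, Ccr6, Apoa2 and the predicted and antisense genes were added for their role or after their values were seen. Some genes of these lists are not reported here. The members, lists and letters searched were chosen with earlier results of these data known.

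Alternatives were another pseudocount, other filters, other scalings, other variance models, voom on the recovered reads, the mouse number as a block and libraries left out.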

Additional observations from a re-analysis of the deposited data

How the results depend on the processing

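Slamf7 kept its direction and its call under all 18 alternatives in which it was tested, between -3.12 and -1.39 on the log2 scale (limma adjusted p from 2.8e-05 to 0.021); at a mean of at least 5 FPKM it was not tested. Of 19 alternatives Slamf6 passed under 14, Slamf1 under 13, Cd84 under 12, Ly9 under 3, Sh2d1a under 2 and Cd48 under 0. In all, 108 of 132 member results kept direction and side of the threshold.

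With each library left out in turn, 240 to 3701 genes and 1 to 6 members passed. The log2 difference ranged from -1.14 to -0.39 for Sh2d1a, -1.26 to -0.64 for Ly9, -0.26 to 0.02 for Cd48, which turned its sign without SLE1.2.3 mouse 1, -0.74 to -0.54 for Slamf1, 0.39 to 0.54 for Cd84 and -1.61 to -1.09 for Slamf6. Leaving out SLE1.2.3 mice 2 and 3 together gave 665 genes and 2 members, with Slamf1 at -0.43 and Cd84 at 0.29 no longer passing. Without a filter 798 genes and 2 members passed, with Slamf6 at -1.34 and Cd84 at 0.46 past the threshold no longer. At a mean of at least 5 FPKM 1129 of 7218 genes passed, since fewer were tested. A common FPKM sum brought Ly9 to -0.85 with a call and Slamf1 to -0.53 without one. Array weights gave 6952 genes, Ly9 at -0.90 and Sh2d1a at -0.77 as calls; their estimation stopped before it converged and put a weight of 68.6 on SLE1.2.3 mouse 2. Beyond the number of genes or libraries, the cause of these changes was not tested.

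Voom on the recovered reads called 1497 genes. With the mouse number as a replicate block 940 genes passed, and the same count of 4 members. Same-numbered libraries deviated together with correlations of 0.00, 0.10 and 0.09, and SLE1.2.3 mouse 1 correlated best with control mouse 2 (0.13), so the numbers were not taken as pairs.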

Other observations

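Some transcripts beside the SLAM genes, chosen after their values were seen, lay under the filter of a mean of 1 FPKM and passed the limma fit with no filter. Gm37065, annotated as antisense at the 5′ end of Slamf6 (chr1:171909957-171919356, minus strand), reached 0.283, 0.268 and 0.277 FPKM in SLE1.2.3 mice 1, 2 and 3, against 1.17, 1.54 and 1.45 FPKM in control mice 1, 2 and 3. Its log2 difference was -0.90 (limma adjusted p = 0.023), the groups did not overlap, and it shares no exonic base with Slamf6. Apoa2, an apolipoprotein gene near the cluster, had 0, 0 and 0.025 FPKM in SLE1.2.3 mice 1, 2 and 3, against 1.04, 1.02 and 0.939 FPKM in control mice 1, 2 and 3. Its log2 difference was -0.99 (limma adjusted p = 0.0056). Gm37145 averaged 0.127 FPKM in SLE1.2.3 and 0.821 FPKM in control libraries, with a log2 difference of -0.69 (limma adjusted p = 0.029).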
